A study of Mus musculus with 24 samples.

Results

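Colon epithelium of KO chimeras 2 weeks after chimerism was compared with colon epithelium of all wild-type (WT) mice, across all genes. The comparison used 9 of the 24 libraries of the series, chosen by their labels alone: 4 KO libraries, 2 from irradiated WT mice and 3 from WT mice that were not treated, with the 5 WT libraries pooled as 1 control group. Every library came from 1 C57BL/6 mouse aged 8 to 14 weeks. The sorted cells were negative for CD45, a protein of all leukocytes, and carried a tomato reporter linked to Villin, a brush border protein of intestinal epithelium. The KO mice (numbers 100, 117, 118 and 120) were taken 2 weeks after chimerism and the irradiated WT mice (59 and 61) at 8 weeks, while the non-irradiated WT mice (72, 73 and 75) carry the label of no treatment. No irradiated WT mouse at 2 weeks was among the libraries, so genotype and time since chimerism cannot be told apart. The labels say only KO, and the series title names gut macrophages without IL-10Rα, a chain of the receptor for interleukin 10 (IL-10). Which cells of the chimeras carried the deletion, the donors and the irradiation dose are not given in the sources used here.

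IL-10 restrains macrophages of the gut wall, and without its receptor they respond strongly to microbial products and can make IL-23. IL-23 induces IL-22 in innate and T lymphocytes, and IL-22 acts on epithelial cells, which carry its receptor and respond through the transcription factor STAT3 with antimicrobial lectins, acute-phase proteins, mucosal fucosylation and chemokines. Interferons form a separate input to the same cells, with type I and III interferons inducing antiviral genes and interferon gamma inducing GTPases of cell-autonomous defence and antigen presentation.

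Each value below is the number of reads on a gene divided by a size factor of its library, called normalised reads. The 9 libraries held 11.8 to 18.6 M reads on genes. Fold changes are differences of log2(normalised reads + 1), KO minus WT, with their standard error (SE), and understate the change of genes near 0. A gene was called when its adjusted p (limma, Benjamini-Hochberg over all genes tested) was under 0.05. Values of single mice are listed in the order 100, 117, 118 and 120 for KO and 59, 61, 72, 73 and 75 for WT. Car1, a carbonic anhydrase of the colon, stood at 8499 to 20787 in KO and 16105 to 29540 in WT colon and at 150.3 ± 120.1 and 82 ± 12.9 in ileum of the same mice (mean ± SD, n = 4 and 5), while Apoa4, an apolipoprotein of the small intestine, stood at 11.2 to 73 in KO and 13.4 to 52.2 in WT colon and at 21924 ± 21068 and 19235 ± 14146 in ileum. Epithelial genes were abundant in every library: Epcam ranged from 12262 to 21958 in KO and 14946 to 24519 in WT, and Vil1 from 10192 to 22889 in KO and 13225 to 31636 in WT. None of the 12 epithelial markers was called, and their median log2 change was -0.00087 against 0.07 over all genes tested. Ptprc, which encodes CD45, stood at 183 to 249 in KO and 157 to 346 in WT, and 0 of 15 leukocyte and lymphocyte markers tested was called (limma). Il10ra stood at 21.1 to 27 in KO and 4.7 to 20.8 in WT (log2 difference 0.97, SE 0.41, adjusted p = 0.289), which checks no label, since the sort removed leukocytes. In sorted cells measured in bulk, fewer cells of a type and less RNA per cell cannot be told apart.

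The WT libraries were of 2 kinds that crossed the irradiation label. Log2 values of mice 59, 72 and 73 correlated across genes at 0.981 to 0.983 with each other and at 0.923 to 0.954 with mice 61 and 75, which correlated at 0.984. Reads on olfactory and vomeronasal receptor genes, which epithelium has no known use for, came to 232 to 234 per M in mice 59, 72 and 73, to 592 and 682 in mice 61 and 75, and to 429 to 693 in KO. Rn45s, the precursor of ribosomal RNA, took 10.03% of reads in KO mouse 100, 16.1 and 19.96% in WT mice 72 and 73, and 0.10 to 3.50% in the others. The part of either difference in the results was not tested. Beside the lists below stand counts and medians from 3 further limma fits, which treat the background in different ways. One used only the 5 libraries with more than 500 background reads per M (KO mice 117, 118 and 120, WT mice 61 and 75), called the high-background libraries, in which 1.18% of all genes were called higher and 0.336% lower. Another used only the 4 low-background libraries (KO mouse 100 and WT mice 59, 72 and 73), where the single KO mouse was assumed to vary like the WT mice and 1.71 and 2.62% were called. The third kept all 9 libraries with background reads as a covariate, which called 5.09% of genes higher and 1.56% lower. WT irradiated against WT non-irradiated colon gave 0 calls among 18767 genes (0.0%, limma), with 36 genes at an unadjusted p under 0.05, fewer than that limit would pass by chance. Each group held both kinds of library and only 2 or 3 mice, so this comparison could miss differences.

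Of 18767 genes tested, 138 rose in KO colon (0.735%) and 144 fell (0.767%), and 2648 had an unadjusted p under 0.05. Among the 282 called genes, 275 had no overlap between the 4 KO and the 5 WT values, a pattern found in 6.5% of all genes tested. Rises were larger than falls: 60 genes rose and 18 fell by more than 4-fold. Genes of the IL-22 response, other secreted defence proteins, a branch of the Clca family, inducible nitric oxide synthase and interferon gamma GTPases were among those that rose. Falls included Ang4, Reg4, Itln1 and Clca1 of secretory cells, 6 type I interferon genes, and single enzymes and transporters such as Cyp4b1, Abcb1a and Slc20a1. Other enzymes and transporters rose, and of 22 tested genes of absorptive colonocytes 1 rose and 1 fell. Of 12 tested genes of deep crypt secretory and Paneth cells 3 fell and 1 rose, and of 18 goblet cell genes 1 fell. With WT irradiated mice alone as control 29 genes were called (22 higher, 7 lower), and with WT non-irradiated mice alone 72 (41 and 31). All 282 genes kept their direction against either control, which was fixed in advance for the 275 whose groups did not overlap. In the high-background libraries 285 genes were called (222 higher, 63 lower), of which 160 were among the 282, and in the low-background libraries 812 (321 and 491), of which 192 were. The shares of 0.735% higher and 0.767% lower over all genes are the background for each count of list members below. The lists were chosen with earlier results of these data known, so these counts describe the data and are not independent support.

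**Figure D1:**
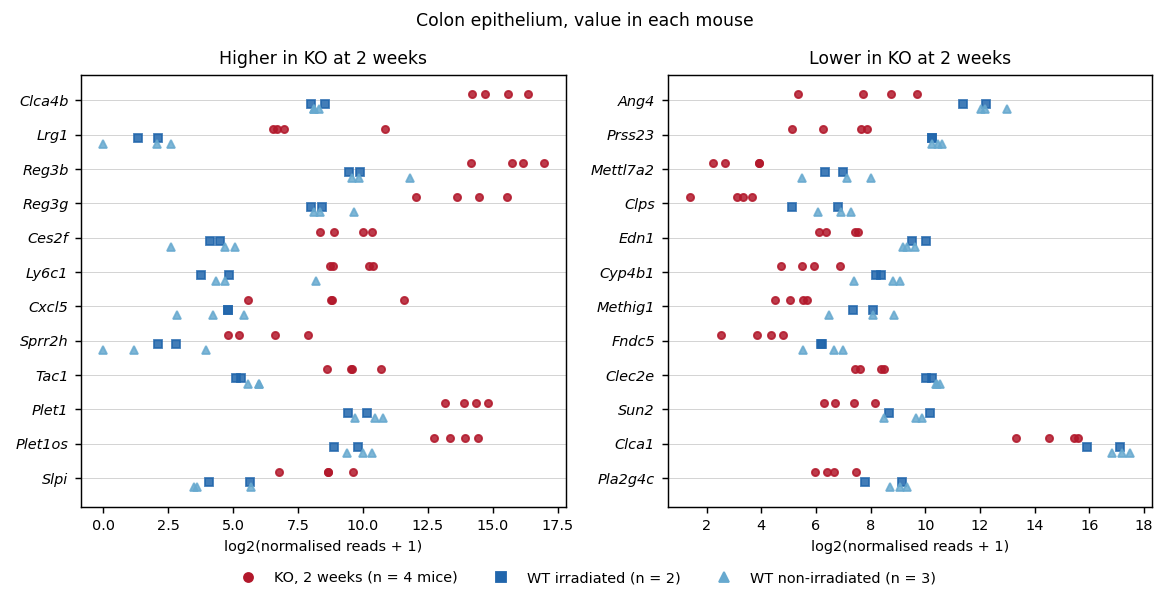
Normalised reads in colon epithelium on a log2(value + 1) axis, 1 point per mouse, for the 12 called genes with the largest rise and the 12 with the largest fall. Red circles are the 4 KO mice at 2 weeks, dark squares the 2 irradiated WT mice and light triangles the 3 non-irradiated WT mice. For each gene shown, all KO points lie on 1 side of all WT points, which was a condition for showing it.

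Genes known to answer IL-22 and STAT3 rose together in number: of 29 members of this list tested, 12 rose and 1 fell (0.735 and 0.767% over all genes), with a median log2 change of 1.76 against 0.07 over all genes. Reg3b and Reg3g encode secreted C-type lectins that act on gut bacteria. Reg3b stood at 18402, 73672, 127632 and 54106 normalised reads in the 4 KO mice and at 701, 950.1, 758, 929.6 and 3606 in the 5 WT mice. The lowest KO value was above the highest WT value, which was that of mouse 75, and the log2 change was 5.64 (SE 0.55, adjusted p = 0.00035). Reg3g stood at 4191, 22435, 48204 and 12454 in KO and 252, 342, 329, 277 and 796 in WT, a change of 5.41 (SE 0.56, adjusted p = 0.000514). In both genes mouse 118 was highest and mouse 100 lowest among the KO mice.

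Socs3, the feedback inhibitor that STAT3 induces, rose in each KO mouse above each WT mouse. Its values were 298, 344, 1746 and 838 in KO and 61.7, 25.3, 34.4, 68.4 and 28.9 in WT, a log2 change of 3.91 (SE 0.48, adjusted p = 0.00169). Osmr, a signalling chain shared by the oncostatin M and IL-31 receptors, stood at 429, 656, 1328 and 1213 in KO and 97.9, 141, 80.3, 142 and 176 in WT, a change of 2.73 (SE 0.34, adjusted p = 0.00169). Steap4, a metalloreductase, stood at 1252, 724, 2727 and 1836 in KO and 143, 145, 119.8, 188 and 172 in WT, a change of 3.26 (SE 0.32, adjusted p = 0.000333). The groups did not overlap in any of these genes, and mouse 118 was highest in each. Tifa, an adaptor that links bacterial sugar sensing to NF-κB, rose by 2.55 on the log2 scale (adjusted p = 0.00194) and Pla2g5, a secreted phospholipase, by 1.76 (adjusted p = 0.00169).

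The acute-phase members divided by gene. Lrg1, a leucine-rich glycoprotein of the acute phase, was near 0 in WT (3.3, 1.5, 5.1, 0 and 3.2) and stood at 103, 92.2, 1836 and 125 in KO, a log2 change of 6.14 (SE 0.81, adjusted p = 0.0028). KO mouse 118 had a value far above the other 3, which lay between 92.2 and 125. Saa3, a serum amyloid A protein, rose from 26–49.7 in WT to 101–226 in KO (log2 1.88, adjusted p = 0.00919). Saa1 was abundant in both groups, at 9159.8 to 22921 in KO and 7559 to 17663 in WT, and did not pass the test (log2 0.27, 95% interval -0.40 to 0.95, adjusted p = 0.664). Lcn2, which withholds iron from bacteria by binding their siderophores, rose at a low level, from 0.8–4.8 in WT to 10.5–116 in KO (log2 3.19, adjusted p = 0.0283).

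Fut2, the enzyme that fucosylates surface glycans of the gut epithelium, rose from 904–1740.5 in WT to 3000.3–7459 in KO normalised reads (log2 1.77, SE 0.30, adjusted p = 0.013). Sprr2h, a cornified envelope protein, stood at 27, 36, 235 and 96.3 in KO and 3.3, 5.9, 1.3, 0 and 14.5 in WT (log2 4.12, adjusted p = 0.0231). The member that fell was Reg4, a lectin of deep crypt secretory cells, from 1058–2971 in WT to 153–548 in KO (log2 -2.04, adjusted p = 0.0276). Receptor and transducer genes were not called: Il22ra1, which gives epithelium its response to IL-22, stood at 790.4 to 1940.1 in KO and 1660.1 to 2808 in WT (log2 -0.59, 95% interval -1.20 to 0.03, adjusted p = 0.378). Il10rb, the chain shared by the IL-22 and IL-10 receptors, differed by -0.02 (-0.46 to 0.41, adjusted p = 0.955), and Stat3 by 0.34 (adjusted p = 0.543). Pim1, a kinase gene that STAT3 induces, had no overlap (194 to 706 in KO, 63.9 to 169 in WT) but did not pass the test (log2 1.54, adjusted p = 0.0721). Without KO mouse 118 the list held 9 higher and 0 lower genes, and without any other single library 10 to 13 higher. The fall of Reg4 was also not called without WT mouse 72. Against WT irradiated mice alone 7 members rose, in the high-background libraries 16 rose and 1 fell, in the low-background libraries 10 and 1, and with the covariate 17 and 1. Reg3b, Reg3g, Lrg1, Steap4, Osmr, Socs3, Pla2g5, Saa3 and Tifa stayed called whichever library was left out. Lcn2, Fut2 and Sprr2h each lost their call in some of these fits.

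**Figure D2:**
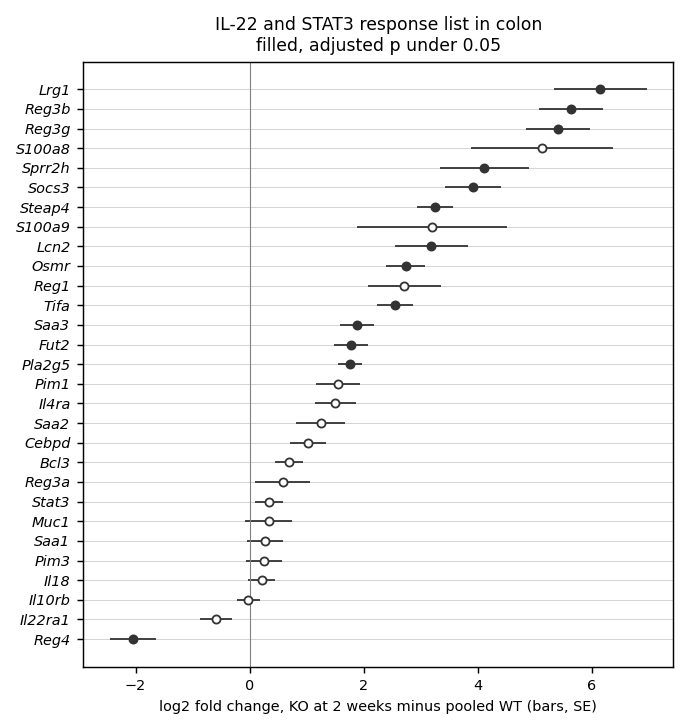
Log2 fold change of the 29 tested members of the IL-22 and STAT3 response list in colon, KO at 2 weeks minus pooled WT, with bars of 1 SE and filled points for adjusted p under 0.05. Members run from Reg4 at -2.04 to Lrg1 at 6.14, and the open points of S100a8 at 5.13 and S100a9 at 3.20 have the widest errors.

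Promoters of 3 of these genes are shown because they carry the core letters to which STAT dimers bind, TTCNNNGAA, which reads the same on both strands. The windows run from 250 bases before to 50 after the start of the gene, as given by RefSeq for the build GRCm38.p6, and the matched letters are in capitals.
Reg3b promoter, chr6:78370635-78370934, plus strand: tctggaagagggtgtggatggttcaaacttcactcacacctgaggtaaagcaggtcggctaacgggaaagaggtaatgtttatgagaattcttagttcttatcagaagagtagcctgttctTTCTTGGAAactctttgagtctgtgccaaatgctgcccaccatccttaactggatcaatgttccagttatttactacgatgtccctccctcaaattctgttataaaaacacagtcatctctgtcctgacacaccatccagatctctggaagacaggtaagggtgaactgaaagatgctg
Socs3 promoter, chr11:117969317-117969616, minus strand: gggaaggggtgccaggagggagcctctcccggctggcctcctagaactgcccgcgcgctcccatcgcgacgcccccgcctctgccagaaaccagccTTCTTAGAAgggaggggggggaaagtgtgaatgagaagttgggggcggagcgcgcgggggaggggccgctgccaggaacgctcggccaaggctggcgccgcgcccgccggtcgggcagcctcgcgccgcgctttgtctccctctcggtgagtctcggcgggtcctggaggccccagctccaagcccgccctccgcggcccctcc
Steap4 promoter, chr5:7960222-7960521, plus strand: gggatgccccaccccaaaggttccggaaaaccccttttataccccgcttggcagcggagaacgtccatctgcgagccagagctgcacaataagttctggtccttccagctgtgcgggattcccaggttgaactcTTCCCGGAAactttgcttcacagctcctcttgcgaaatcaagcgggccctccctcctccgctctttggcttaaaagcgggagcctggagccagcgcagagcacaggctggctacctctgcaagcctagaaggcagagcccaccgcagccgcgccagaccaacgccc
The matches began 129, 154 and 116 bases before the start of Reg3b, Socs3 and Steap4. Of the 138 genes that rose, 98 had a promoter in the RefSeq table and 18 of those (18.4%) held the motif. The share was 9.43% (10 of 106) for genes that fell, 8.92% for all tested genes with a promoter and 9.55% for all 27025 promoters. In the IL-22 list itself 3 of 27 promoters held it. These shares describe letters in a short window and not binding.

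Other secreted defence proteins moved in both directions, with 5 of 23 tested members higher and 2 lower (0.735 and 0.767% over all genes) and a median of 0.18. Dmbt1, a scavenger receptor glycoprotein that binds bacteria, was already abundant in WT and stood at 94547, 101824, 183466 and 141594 in KO and 43670, 30533, 36301, 38602 and 28899.7 in WT (log2 1.84, SE 0.32, adjusted p = 0.0152). Pla2g2a, a gene of the secreted phospholipase family whose protein was not measured, stood at 137, 176, 225 and 173 in KO and 35.4, 26, 22.9, 24.9 and 20.1 in WT (log2 2.74, SE 0.24, adjusted p = 0.000222). Slpi, a protease inhibitor with antimicrobial activity, stood at 402, 109, 782 and 399.9 in KO and 48.6, 15.6, 10.2, 51.3 and 11.3 in WT (log2 3.92, adjusted p = 0.00732). All KO values of these genes were above all WT values, with the KO values of Pla2g2a close together and those of Slpi spread. Ltf, which encodes the iron-binding lactoferrin, rose by 3.47 (adjusted p = 0.0131), with mouse 118 at 1283 and the other KO mice at 113 to 394. Pglyrp1, a peptidoglycan recognition protein, rose by 1.76 (adjusted p = 0.0366).

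The genes of the secreted defence list that fell, Ang4 and Itln1, are products of goblet, deep crypt and Paneth cells. Of 12 tested genes listed for deep crypt secretory and Paneth cells, 3 fell (Ang4, Itln1 and Reg4) and 1 rose (Pla2g2a). Their median was 0.18, and 7 of the 12 values were positive. Ang4, a microbicidal ribonuclease, had values of 429, 829, 39.6 and 211 in KO and 4765, 2686, 8222, 4218 and 4684 in WT. Mouse 118 was lowest and mouse 117 highest of the KO mice, no KO value reached the lowest WT value, and the change was -4.29 (SE 0.66, adjusted p = 0.00841). Itln1, an intelectin that binds microbial sugars, stood at 27.8 to 73 in KO and 76.6 to 391 in WT (log2 -1.99, adjusted p = 0.0356). Mptx1, a mucosal pentraxin, stood at 4895, 6781, 179 and 4494 in KO and 21738, 21974, 53568, 25996 and 30330.1 in WT. Its groups did not overlap, but mouse 118 stood far below the other 3 KO mice and the difference of -3.67 (SE 0.84) did not pass the test (adjusted p = 0.053). Retnlb, another goblet cell product with antibacterial activity, stood at 1794 to 3541 in KO and 976 to 4409 in WT (log2 0.24, adjusted p = 0.74). Against WT irradiated mice alone 1 gene of the secreted defence list rose and 0 fell (limma). Of this list 3 genes rose without KO mouse 118, and 1 fell without KO mouse 120 or any of WT mice 59, 72 and 73. Pla2g2a, Slpi, Ltf and Ang4 stayed called whichever library was left out. Dmbt1, Pglyrp1 and Itln1 did not.

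The Clca genes, which lie in 1 cluster and encode secreted or membrane-bound metalloproteases that modulate chloride conductance, moved apart. Of 7 tested members 4 rose and 2 fell (0.735 and 0.767% over all genes), with a median of 2.15. Clca4b had the largest rise of any called gene that met the rule for naming, with 18655, 26802, 83854 and 49379.7 normalised reads in KO and 372, 256, 312, 275 and 276 in WT, a log2 change of 6.999 (SE 0.36, adjusted p = 1.28e-06). The mean in KO was 149.8 times that in WT. Clca3b rose from 1082–1728 in WT to 4597–19782 in KO (log2 2.87, adjusted p = 0.00169), Clca3a1 by 2.58 (adjusted p = 0.00506) and Clca3a2 by 2.15 (adjusted p = 0.00958). Clca3a1 and Clca3a2 are close copies, and how reads were divided between them is not given. Clca1, which goblet cells secrete into mucus, stood at 49215, 23392, 10142 and 44363 in KO and 141589, 62399.5, 184400, 152016 and 115798 in WT (log2 -2.20, SE 0.49, adjusted p = 0.0455). Clca2 fell by 1.33 (adjusted p = 0.0135), and Clca4a, the neighbour of Clca4b in the family, differed by -0.47 (adjusted p = 0.522). Without KO mouse 118 neither fall was called and 3 genes rose, and 1 gene fell without KO mouse 117 or any of WT mice 59, 72, 73 and 75. The list had 4 higher and 1 lower gene and a median of 2.54 in the high-background libraries, 3 and 2 with a median of 0.77 in the low-background libraries, and 4 and 1 with the covariate. Clca4b, Clca3b and Clca3a1 stayed called whichever library was left out.

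In the list of oxidases and nitric oxide, which also holds the peroxidase Gpx2, 3 of 12 tested genes rose and 0 fell (limma), with a median of 0.57. Nos2, the inducible nitric oxide synthase, stood at 8672, 9412, 26657 and 25369 in KO and 833, 879, 1712, 1096 and 1142 in WT. KO mice 118 and 120 were at about the same level and above mice 100 and 117, and all 4 were above WT (log2 3.81, SE 0.36, adjusted p = 0.000328). Nox1, the superoxide-producing oxidase of colon epithelium, rose from 146–363 in WT to 446–869.9 in KO (log2 1.41, adjusted p = 0.0219). Gpx2, the glutathione peroxidase of the gut, rose by 1.97 (adjusted p = 0.0061); how reads were divided between it and its pseudogene is not given. Duox2, a hydrogen peroxide producer of the apical membrane, was abundant in both groups (11200.4 to 27593 in KO, 6888 to 18367 in WT) and did not pass the test (log2 0.59, 95% interval -0.17 to 1.36, adjusted p = 0.478). Rises in this list numbered 3 in the high-background libraries (median 1.08) and 6 with the covariate (median 0.92), and the median in the low-background libraries was 0.52. Nos2 and Gpx2 stayed called whichever library was left out, and Nox1 did not.

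Iron and zinc genes included Tfrc, the transferrin receptor, which rose from 1833–3219.9 in WT to 6298–8985 in KO normalised reads (log2 1.68, SE 0.21, adjusted p = 0.0018). With Steap4 and Lcn2 it made 3 higher members of 20 tested, against 2 in the high-background and 2 in the low-background libraries. The 1 lower member was Slc30a10, a manganese exporter, at 204 to 728 in KO and 586 to 1068 in WT (log2 -1.46, adjusted p = 0.0468). Of 23 glycosylation genes tested, Fut2 rose and so did B3galt5, a galactosyltransferase, from 5807–11725 in WT to 14988–22013 in KO (log2 1.14, adjusted p = 0.0492), and none fell. B3galt5 was called in no fit that left out 1 library, nor with a pseudocount of 10, without the filter, with TMM scaling or with edgeR. Without KO mouse 118 neither gene was called, and against either WT group alone 0 glycosylation genes were (limma). With the covariate 5 rose.

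Chemokine genes that draw neutrophils varied widely between KO mice. Cxcl5 stood at 46.4, 443, 3078 and 433 in KO and 27.2, 26.8, 42, 6.2 and 17.7 in WT (log2 4.26, SE 0.90, adjusted p = 0.037), and Cxcl2 at 14.3, 109, 536 and 58.6 in KO and 7.4, 5.2, 3.8, 4.7 and 4.8 in WT (log2 3.82, SE 0.75, adjusted p = 0.0269). In both genes mouse 118 was highest by several-fold and mouse 100 was just above WT. Cxcl1 overlapped between the groups (22.8, 116, 338 and 98.4 in KO, 10.7, 23.8, 42, 10.9 and 26.5 in WT, adjusted p = 0.114). The list had 2 higher and 0 lower of 6 tested genes, with a median of 2.79. It had 0 higher genes without any 1 of KO mice 117, 118 or 120 or of WT mice 59, 72 or 73, 1 without WT mouse 75 and 4 without KO mouse 100. In the high-background libraries 4 of these genes rose and the median was 3.62, while in the low-background libraries, whose KO mouse was 100, 0 rose and it was 0.81 (limma). Among chemokines for lymphocytes and monocytes, Ccl8 rose from 3.1–9.6 in WT to 32–97.1 in KO (log2 2.97, adjusted p = 0.00353) and Ccl7 from 0–5.6 in WT to 12.6–147 in KO (log2 3.33, adjusted p = 0.0463). Cxcl16, a membrane-bound chemokine, fell from 387–556 in WT to 131–284 in KO (log2 -1.18, adjusted p = 0.0396), and the other 11 of 14 were not called. In this list 1 gene rose without KO mouse 118 or 120 or WT mouse 59, 72 or 73. Cxcl16 lost its call without any 1 of KO mice 100, 117 and 118 or WT mice 59, 72 and 73. Ccl8 stayed called whichever library was left out.

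S100a8 and S100a9 encode both chains of calprotectin, which neutrophils hold in quantity and inflamed epithelium can express. S100a8 stood at 16, 90.7, 3945 and 240.1 in KO and 0.8, 28.3, 2.5, 3.1 and 6.4 in WT (log2 5.13, SE 1.24, adjusted p = 0.0627), and S100a9 at 5.9, 27, 1379 and 32.1 in KO and 0, 34.2, 2.5, 4.7 and 9.6 in WT (log2 3.20, adjusted p = 0.278). Mouse 118 carried nearly all of the KO reads of both genes, the groups overlapped, and neither gene passed the test. None of 12 tested neutrophil markers was called. The 15 neutrophil markers in the file, which include these 2, summed to 125 to 694 reads per M in KO, with mouse 118 highest, and to 78.4 to 162 in WT. None of them was at 0 in all libraries of a group. Mpo and Ngp, granule proteins of neutrophil precursors, stayed low, with Mpo at 10.9 to 14.3 in KO and 5.8 to 23.3 in WT and Ngp at 3.7 to 14.8 in KO and 3.1 to 18.6 in WT. Ly6g, a neutrophil surface marker, stood at 850.4 to 3421 in KO and 624 to 2302 in WT colon and at 9.3 ± 6.97 and 5.66 ± 3.23 in ileum. In colon it was thus far more abundant than Mpo and Ngp, also in WT. A sum of markers follows its most abundant members and does not count neutrophils. Macrophage and monocyte markers summed to 61.5 to 130 reads per M in KO and 32.0 to 81.9 in WT, and 1 of 14 rose, Cd14, an endotoxin co-receptor (log2 1.77, adjusted p = 0.037). Csf1r stood at 38.8 to 59.8 in KO and 19.1 to 51.4 in WT. Leukocyte and lymphocyte markers summed to 38.6 to 59.9 reads per M in KO and 28.6 to 71.1 in WT. Their part in the rise of the chemokines was not tested.

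Of 20 tested targets of the transcription factor NF-κB, Tnf and Icam1 rose. Tnf, the inflammatory cytokine, stood at 185, 326, 965 and 689 in KO and 143, 91.4, 148, 151 and 93.2 in WT (log2 1.86, adjusted p = 0.0418), and Icam1, an adhesion molecule for leukocytes, at 49.8, 56.2, 175 and 71.2 in KO and 9.1, 20.1, 12.7, 29.5 and 21.7 in WT (log2 2.09, adjusted p = 0.0283). The KO mice again ranked with 118 highest and 100 lowest. The list had 0 rises without any 1 of KO mice 118 and 120 or WT mice 59 and 72, 3 without KO mouse 100 and 1 without any other library. Against either WT group alone 0 rose, and in the low-background libraries 0 rose and 1 fell (limma). Il18, a cytokine that IL-22 can induce in epithelium, stood at 775 to 1201 in KO and 487 to 1099.6 in WT (log2 0.21, adjusted p = 0.664). In the list of inflammasomes and gasdermins 1 of 24 rose, Ripk3, a kinase of necroptosis, from 206–431 in WT to 628–2242 in KO (log2 1.89, adjusted p = 0.0234). The pore-forming gasdermins Gsdmc2 and Gsdmc3 fell by 1.27 and 1.39 (adjusted p = 0.0236 and 0.0276). Neither Ripk3 nor the gasdermins were called without KO mouse 118 or 120 or WT mouse 59, and the gasdermins also lost their calls without WT mouse 72 or 73. The list had 5 higher and 2 lower genes with the covariate, 2 and 0 in the high-background libraries and 1 and 2 in the low-background libraries.

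Interferon-inducible genes went in 2 directions. Of 28 tested members of the type I and III list 0 rose and 6 fell (0.735 and 0.767% over all genes), with a median of -0.72 against 0.07 over all genes. Of 20 tested members of the interferon gamma list 5 rose and 0 fell, with a median of 1.15. Rsad2, the antiviral enzyme viperin, stood at 559, 323, 309 and 873 in KO and 1678, 1448, 2687, 3078 and 1686 in WT (log2 -2.10, SE 0.32, adjusted p = 0.00841). Ifit1, which binds viral RNA ends, stood at 1004, 632, 605 and 989 in KO and 1976, 1728, 3681, 3219.5 and 2337 in WT (log2 -1.66, SE 0.26, adjusted p = 0.00893). Within KO, mice 117 and 118 were lowest in both genes, and no KO value reached the lowest WT value, that of mouse 61. Ifit3 fell by 1.35, Mx2 by 1.20, Ifi27 by 1.15 and Rtp4 by 1.14 (adjusted p = 0.0231, 0.0366, 0.0442 and 0.048).

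Members that did not pass included Oas2 at -1.56 (adjusted p = 0.0552), Isg15 at -1.49 (0.199) and Irf7 at -1.26 (0.174). Isg15 was 513, 140.5, 860.1, 570.5 and 196 in WT, with the lowest values in mice 61 and 75, and 233, 60, 127 and 169 in KO. The number of lower members was 2 without KO mouse 118, WT mouse 59 or WT mouse 72 (where 1 gene also rose), 3 without KO mouse 117, KO mouse 120 or WT mouse 73, and 5 to 7 without any other library. Among these genes 1 rose and 3 fell in the high-background libraries (median -0.40), 0 rose and 10 fell in the low-background libraries (median -0.71), and 4 rose and 6 fell with the covariate (median -0.42). DESeq2 called 2 higher and 13 lower, where it called 3.1 and 6.53% of all genes, and against WT irradiated mice alone 0 fell (limma). Rsad2 and Ifit1 stayed called whichever library was left out.

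Iigp1, an immunity-related GTPase, stood at 1777, 3204, 3371 and 3875 in KO and 388, 529, 316, 1229.7 and 132 in WT (log2 2.86, SE 0.49, adjusted p = 0.0135). Gbp4, a guanylate-binding protein, stood at 508, 786, 2235 and 2522 in KO and 97.9, 110, 80.3, 509.9 and 65.9 in WT (log2 3.29, SE 0.59, adjusted p = 0.0182). WT mouse 73 was the highest WT mouse in both genes and overlapped with the lowest KO mouse in Gbp4. Without it the changes were larger in the list as a whole, with a median of 1.43. Tgtp1 stood at 146, 262, 346 and 453 in KO and 19.8, 23.8, 12.7, 148 and 5.6 in WT, with mouse 73 again within the KO range. Tgtp1 and Tgtp2, T cell-specific GTPases that are near-identical copies, rose by 3.58 and 2.97 (adjusted p = 0.0249 and 0.0258), and the division of reads between them is uncertain. Irf8, a transcription factor that interferon gamma induces, rose by 1.30 (adjusted p = 0.0444). The number of higher members was 0 without KO mouse 118, 1 without KO mouse 120, WT mouse 59 or WT mouse 72, 3 without KO mouse 117, 9 without WT mouse 73 and 4 without any other library. In the high-background libraries, which leave out mouse 73, 12 rose and the median was 1.66. In the low-background libraries, which hold it, 2 rose and the median was 0.39. The covariate gave 10 rises, DESeq2 9 and edgeR 3. Against WT irradiated or WT non-irradiated mice alone 0 rose (limma).

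**Figure D3:**
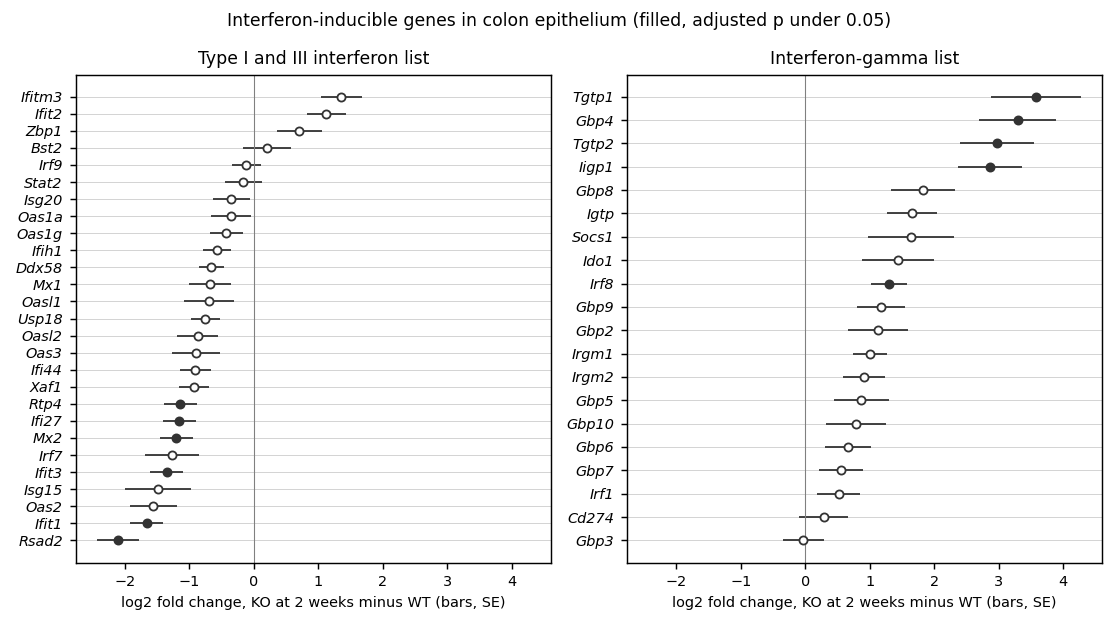
Log2 fold change in colon, KO at 2 weeks minus pooled WT, of 27 of the 28 tested genes of the type I and III interferon list (left) and the 20 of the interferon gamma list (right), with bars of 1 SE and filled points for adjusted p under 0.05. On the left 23 of 27 points lie below 0, and on the right 19 of 20 lie above it.

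Promoters of 3 interferon-inducible genes are shown for the letters GAAANNGAAA or their reverse complement, the core of the interferon-stimulated response element. This motif was chosen after the values were seen. The windows and capitals are as above.
Rsad2 promoter, chr12:26456403-26456702, minus strand: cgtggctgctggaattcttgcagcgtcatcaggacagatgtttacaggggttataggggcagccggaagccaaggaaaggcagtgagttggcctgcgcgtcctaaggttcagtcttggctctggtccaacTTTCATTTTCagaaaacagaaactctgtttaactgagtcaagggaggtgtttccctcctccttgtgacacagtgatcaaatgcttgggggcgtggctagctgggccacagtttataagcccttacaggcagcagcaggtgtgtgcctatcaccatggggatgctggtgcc
Ifit1 promoter, chr19:34640639-34640938, plus strand: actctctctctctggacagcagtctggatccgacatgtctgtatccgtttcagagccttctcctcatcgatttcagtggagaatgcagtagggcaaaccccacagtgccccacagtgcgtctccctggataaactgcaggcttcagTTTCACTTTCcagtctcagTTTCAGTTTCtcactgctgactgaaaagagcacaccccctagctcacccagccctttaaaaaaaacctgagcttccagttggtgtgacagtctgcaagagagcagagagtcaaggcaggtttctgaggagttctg
Tgtp1 promoter, chr11:48992197-48992496, minus strand: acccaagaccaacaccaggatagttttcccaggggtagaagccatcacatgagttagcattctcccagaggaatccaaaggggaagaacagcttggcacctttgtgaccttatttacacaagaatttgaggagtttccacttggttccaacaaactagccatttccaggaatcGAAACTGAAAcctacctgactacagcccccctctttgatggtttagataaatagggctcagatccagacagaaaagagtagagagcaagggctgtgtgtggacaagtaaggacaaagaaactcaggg
Rsad2 held 1 match, beginning 120 bases before its start, Ifit1 held 2, at 104 and 85 bases, and Tgtp1 held 1, at 77 bases. The motif stood in 12 of 20 promoters found for the type I and III list (60%), against 3.99% of all 27025 promoters and 3.74% of tested genes. It stood in 10.2% of promoters of genes that rose (10 of 98) and 9.43% of those that fell (10 of 106). Rsad2 and Ifit1, which fell, and Tgtp1, which rose, thus share these letters.

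Antigen presentation genes were not called with all 9 libraries and no covariate, but were in several other fits. None of 22 MHC class I genes (median 0.50) and none of 11 MHC class II genes (median 1.42) was called with limma. Cd74, the invariant chain of class II, stood at 16901, 6365, 19049.6 and 18246 in KO and 8879, 5081, 2282, 14576 and 404 in WT (log2 1.95, SE 0.82, adjusted p = 0.289). WT mice 72 and 75 were far below WT mouse 73, and the WT range crossed that of KO. Ciita, the master regulator of class II, stood at 1136, 454, 1400.5 and 1112 in KO and 351, 382, 169.5, 802 and 133 in WT (log2 1.65, adjusted p = 0.115). Psmb9, a subunit of the immunoproteasome, differed by 1.46 (SE 0.44, adjusted p = 0.136), with WT mouse 73 the highest WT mouse here as well. With limma, 1 class I and 1 class II gene rose when WT mouse 73 was left out, and 0 and 0 when any other single library was. High-background libraries gave 4 class I and 0 class II rises (medians 1.03 and 1.98), and low-background libraries 3 and 2 (medians 0.18 and 1.26). With the background covariate 10 class I and 6 class II genes rose. With the share of Rn45s as covariate, which called 0.805% of all genes higher, 4 and 2 rose. DESeq2 called 3 and 2, and edgeR 0 and 0.

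Goblet cell genes were lower in the median (-0.86), with 1 of 18 called, Clca1. Muc2, the gel-forming mucin, stood at 39516, 19339.6, 38834 and 48701 in KO and 106420, 31913, 88212, 101013 and 52458 in WT (log2 -0.997, 95% interval -1.92 to -0.08, adjusted p = 0.296). Fcgbp, a mucus protein, stood at 68925, 13150.3, 39844 and 44981 in KO and 144570, 25899.7, 112602, 120050 and 48549 in WT (log2 -1.08, adjusted p = 0.43). WT mice 61 and 75 were lowest among WT in both genes, and their values lay within the KO range or close to it. In the high-background libraries, where these are the only WT mice, the median of the list was -0.30 and 0 genes were called (limma). It was -0.61 with 2 lower genes in the low-background libraries and -0.15 with 0 called with the covariate, and DESeq2 called 6 lower. The number of lower genes was 4 without KO mouse 100, 2 without WT mouse 61, 0 without KO mouse 117 or 118 or WT mouse 59, 72, 73 or 75, and 1 without KO mouse 120.

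Hormone-making enteroendocrine cells showed 1 gene higher and 2 lower of 21. Tac1, which encodes the neuropeptide substance P, stood at 392, 756, 1642 and 736 in KO and 33.7, 38.7, 63.7, 46.6 and 63.5 in WT, with all KO values far above WT (log2 3.99, SE 0.35, adjusted p = 0.000222). Chga, a granin of the secretory granules, stood at 227, 240, 107 and 273 in KO and 427, 574, 619, 948 and 743 in WT (log2 -1.67, adjusted p = 0.0159), and Sct, which encodes secretin, at 17.9 to 29.5 in KO and 52.8 to 77.7 in WT (log2 -1.40, adjusted p = 0.019). Neural and glial markers, a further possible source of Tac1, summed to 37.4 to 74.8 reads per M in KO and 22.4 to 79.7 in WT, and 0 of 11 was called (limma). Of 12 tuft cell genes 1 fell, Hpgds, the prostaglandin D synthase (log2 -1.17, adjusted p = 0.0315). None of 19 intestinal stem cell genes was called, and Lgr5 stood at 186 to 267 in KO and 202 to 297 in WT (log2 -0.13, 95% interval -0.54 to 0.29). The low-background libraries gave 3 lower enteroendocrine, 3 lower tuft and 1 lower stem cell gene, and the high-background libraries 1, 0 and 0. Tac1 and Chga stayed called whichever library was left out.

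Surface genes of injured or regenerating epithelium rose in part. Plet1, a marker of wound-associated and progenitor epithelium, stood at 9183, 15082, 29118 and 21094 in KO and 1130, 695, 1764, 822 and 1408 in WT (log2 3.96, SE 0.35, adjusted p = 0.000222). Its antisense neighbour Plet1os rose by 3.93, and since the use of strand in counting is not given, reads of the 2 cannot be told apart. Ly6a, also called Sca-1, stood at 8331, 8336, 15101 and 13892 in KO and 2201, 1636, 3124, 5522 and 1867 in WT (log2 2.09, SE 0.34, adjusted p = 0.0113), and Ly6c1 at 466, 428, 1324 and 1191 in KO and 28, 12.6, 19.1, 295 and 24.9 in WT (log2 4.38, adjusted p = 0.0126). WT mouse 73 was again the highest WT mouse in both Ly6 genes. Ly6d rose by 3.46 (adjusted p = 0.0452), which made 3 of 10 Ly6 genes, and Anxa1, an anti-inflammatory annexin, rose by 1.16 (adjusted p = 0.0409). The other 17 of 19 wound-associated and fetal-like genes were not called and their median was -0.03, with Clu at -0.66 (adjusted p = 0.365) and Cldn4 at -1.72 (0.146). Plet1 stayed called whichever library was left out. Without KO mouse 118 the Ly6 list had 0 rises (limma), and without any other single library 2 or 3. It had 3, 2 and 5 rises in the high-background libraries, the low-background libraries and the covariate fit. The wound-associated list had 2 higher and 0 lower genes in the high-background libraries (median 0.40) and 1 and 3 in the low-background libraries (median -0.20).

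Transport and detoxification genes of mature colonocytes moved singly and in both directions. Slc20a1, a phosphate transporter, stood at 3813, 964, 1686 and 3869.8 in KO and 17067, 7008, 8532, 8861 and 9650.4 in WT (log2 -2.14, SE 0.40, adjusted p = 0.0222). Slc51b, a subunit of the basolateral bile acid exporter, rose from 381–485 in WT to 764–1488 in KO (log2 1.28, adjusted p = 0.0114). No other gene of 22 on the colonocyte list was called, and its median was -0.49. Low-background libraries gave 2 higher and 3 lower genes of this list, and DESeq2 3 and 6. Abcb1a, the drug efflux pump P-glycoprotein, stood at 11230.3, 3965, 3039 and 9068 in KO and 19976, 18973, 21340, 22927 and 19457 in WT (log2 -1.79, SE 0.35, adjusted p = 0.0271). The 2 lowest KO values were those of mice 117 and 118, and the WT values were close together. Cyp4b1, a cytochrome P450, fell from 166–544 in WT to 25.6–118 in KO (log2 -2.62, adjusted p = 0.00941) and Sult1c2, a sulfotransferase, by 1.34 (adjusted p = 0.0452). Cyp2j6, another P450, rose by 0.92 (adjusted p = 0.0433). Of 41 xenobiotic genes tested 1 rose and 3 fell (0.735 and 0.767% over all genes), with a median of -0.21. The number lower was 6 without KO mouse 100, 3 without KO mouse 120, 2 without WT mouse 61, 73 or 75 and 1 without any other library. It was 3 in the high-background libraries, where 0 rose and the median was -0.61, and 1 in the low-background libraries, where 4 rose and the median was 0.0025. Cyp2c55 stood at 15573, 6580, 849 and 10190.5 in KO and 22684, 36248, 42099, 40336 and 30592 in WT and did not pass the test (log2 -2.62, adjusted p = 0.0708). The call of Slc20a1 was lost in some fits that left out 1 library, as were those of Abcb1a, Sult1c2 and Cyp2j6.

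Carboxylesterases, which cleave esters and amides, moved in both directions: 2 rose and 2 fell of 18. Ces2f stood at 468, 326, 1317 and 1021 in KO and 16.5, 21.6, 5.1, 32.6 and 24.9 in WT (log2 5.20, SE 0.50, adjusted p = 0.000333), and Ces2g at 262 to 815 in KO and 76.3 to 132 in WT (log2 2.29, adjusted p = 0.00425). Ces1d fell by 1.85 and Ces2b by 1.07 (adjusted p = 0.044 and 0.032). In lipid metabolism Fads1, a fatty acid desaturase, rose by 1.60 (adjusted p = 0.0164), Acsl3, an acyl-CoA synthetase, fell by 1.46 (adjusted p = 0.0279) and Fabp2, a fatty acid-binding protein, fell by 1.62 (adjusted p = 0.0228). An unnamed transcript overlaps Fabp2, and reads of the 2 cannot be told apart without strand. Retinoid genes gave Dhrs9, a retinol dehydrogenase, higher by 1.70 (adjusted p = 0.0215) and Lrat, which esterifies retinol, lower at -1.60 (adjusted p = 0.00978). The median of the carboxylesterases was 0.25, and it was -0.31 in the high-background and 0.44 in the low-background libraries, each with 2 higher and 2 lower genes. Ces2f, Ces2g and Lrat stayed called whichever library was left out.

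Few genes of growth, stress and energy lists were called with all 9 libraries and no covariate, and more were in other fits. Those fits also called more of all genes: 5.09% higher with the covariate, 3.1% higher with DESeq2 and 1.18% higher in the high-background libraries. Cyclin genes Ccne1 (65.2 to 69 in KO, 28 to 38.2 in WT, log2 1.005, adjusted p = 0.0433) and Ccnd1 (594 to 1176 in KO and 176 to 446 in WT, log2 1.30, adjusted p = 0.0433) rose, the 2 called of 32 cell cycle genes. Of their list 30 values were positive, with a median of 0.36, and Mki67, the proliferation marker, stood at 1341 to 2533 in KO and 1115 to 2088 in WT (log2 0.23, adjusted p = 0.642). The direction of the cell cycle list turned with the kind of library: its median was 0.81 with 6 higher genes in the high-background libraries and -0.19 with 0 called in the low-background libraries (limma). With the covariate 4 of the 32 cell cycle genes rose, where 5.09% of all genes did. Manf, a secreted protein of endoplasmic reticulum stress, was the 1 of 26 unfolded protein response genes to rise (log2 1.10, adjusted p = 0.033; list median 0.58). Hspa5, the main chaperone of that compartment, stood at 5207, 11401, 9158 and 6869 in KO and 4451, 3079, 5004, 4698 and 2359 in WT and did not pass (log2 1.05, adjusted p = 0.1). Of the unfolded protein response genes 12 rose with the covariate, 11 with DESeq2 and 8 in the high-background libraries, while in the low-background libraries 0 rose, 2 fell and the median was 0.047. The cholesterol synthesis and uptake list, with a median of 0.55, had 1 of 22 genes higher, but 14 with the covariate, 7 with DESeq2 and 5 in the low-background libraries. Plk2 was the 1 of 19 p53 targets called (log2 -1.14, adjusted p = 0.0113), and Cdkn1a, the cell cycle inhibitor that p53 induces, stood at 536 to 1837 in KO and 826 to 1769 in WT (log2 -0.18, adjusted p = 0.8). None of 20 ion and water transport genes, 17 tight junction genes, 27 oxidative phosphorylation genes, 15 ephrin genes and 23 immediate early genes was called (limma). The oxidative phosphorylation genes had 25 positive values and a median of 0.38, and the immediate early genes 6 and -0.50. With the covariate 10 oxidative phosphorylation genes rose. The immediate early list had a median of 0.12 with 0 called in the high-background libraries and of -0.90 with 10 lower genes in the low-background libraries (limma). In the low-background libraries the medians were -0.32 for p53 targets, -0.29 for ion and water transport, -0.31 for tight junction and -0.22 for ephrin genes. With all 9 libraries they were -0.32, -0.235, -0.13 and -0.17. Ccne1, Ccnd1 and Manf each lost their call in some fits that left out 1 library.

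**Figure D4:**
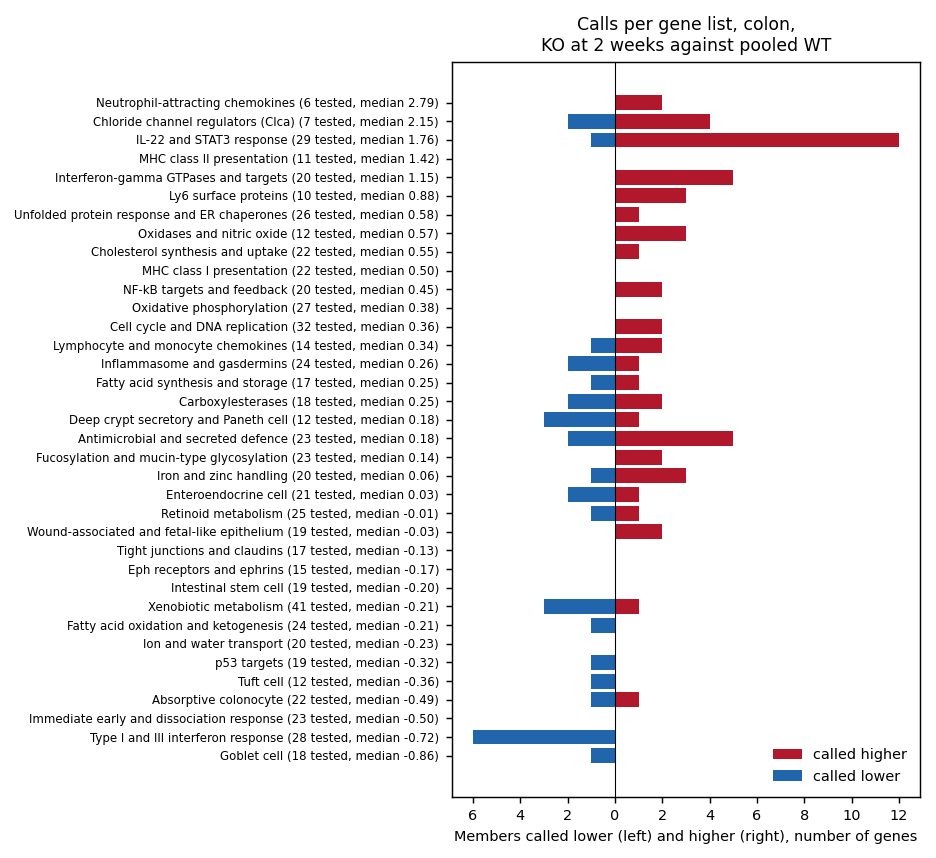
Number of genes called higher (red, right) and lower (blue, left) in each of 36 gene lists, KO at 2 weeks against pooled WT in colon, ordered by the median log2 change, with the number tested and that median beside each name. The IL-22 and STAT3 list has the most rises, 12, and the type I and III interferon list the most falls, 6.

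Several of the largest falls stood outside the lists. Prss23, a serine protease, stood at 234, 76.5, 34.2 and 202 in KO and 1214, 1229, 1213, 1558 and 1407 in WT (log2 -3.63, SE 0.45, adjusted p = 0.00169). Edn1, which encodes the vasoconstrictor peptide endothelin, stood at 174, 82.5, 69.1 and 184 in KO and 1049, 731, 651, 780.4 and 583 in WT (log2 -2.67, SE 0.30, adjusted p = 0.000982). Clec2e, a C-type lectin of the NK receptor ligand family, stood at 360.1, 194, 172 and 331 in KO and 1035, 1201, 1346, 1377 and 1475 in WT (log2 -2.34, SE 0.24, adjusted p = 0.000413). Every KO value of these 3 genes was below the lowest WT value, and mouse 118 was lowest in each. Endothelial markers, a further possible source of Edn1, summed to 79.2 to 123 reads per M in KO and 44.8 to 151 in WT, and 0 of 12 was called (limma). Clps, pancreatic colipase, fell from 33.5–155 in WT to 1.6–11.8 in KO (log2 -3.56, adjusted p = 0.00574), while pancreatic Pnlip stood at 11.2 to 21.7 in KO and 4.7 to 21.7 in WT. Sun2, a nuclear envelope protein, fell by 2.23 and Pla2g4c, a cytosolic phospholipase, by 2.17 (adjusted p = 0.0214 and 0.00894). Mettl7a2 and Methig1, close relatives among putative methyltransferases, fell by 3.61 and 2.58, and Fndc5, the precursor of irisin, by 2.43 (adjusted p = 0.00415, 0.00958 and 0.0192). Sun2, Methig1 and Fndc5 each lost their call in some fits that left out 1 library, and the other genes of this paragraph that fell did not.

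The 4 KO mice did not respond to the same degree. Mouse 118 had the highest KO value in 86 of the 138 genes that rose and the lowest in 111 of the 144 that fell. Over the genes that rose, the median log2 distance from the WT mean was 1.36 in mouse 100, 1.50 in mouse 117, 2.58 in mouse 118 and 2.03 in mouse 120. Over the genes that fell it was -1.04, -1.40, -1.74 and -1.05. Without mouse 118 the comparison called 84 genes (46 higher, 38 lower). All 282 kept their direction, which was fixed in advance for the 275 with no overlap between the groups. Leaving out WT mouse 59 gave 104 calls, WT mouse 72 gave 126 and WT mouse 73 gave 164, while without KO mouse 100, 117 or 120 or WT mouse 61 or 75 there were 329, 198, 203, 233 and 290. The largest spread among KO mice within the IL-22 list was that of S100a8, S100a9 and Lrg1, with SDs of log2 values of 3.29, 3.27 and 2.06, each highest in mouse 118.

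**Figure D5:**
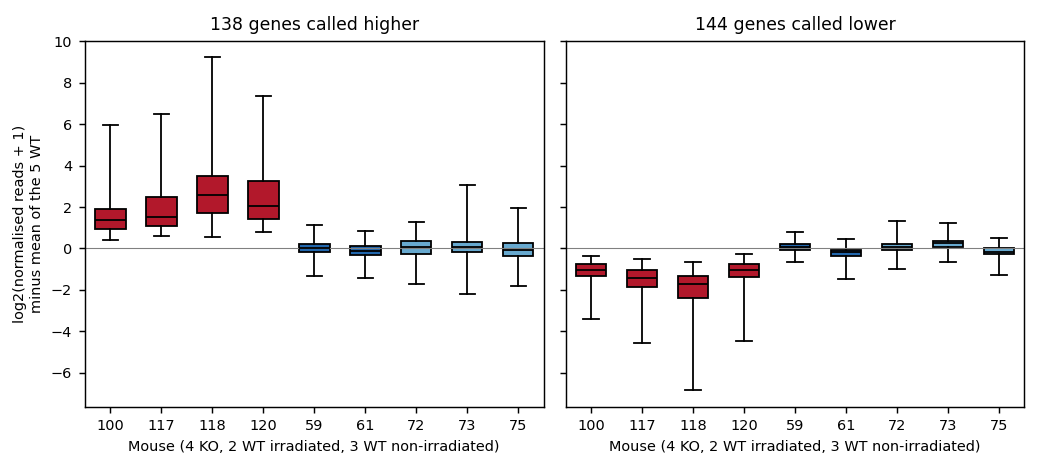
Distance of each mouse from the mean of the 5 WT mice, in log2(normalised reads + 1), over the 138 genes called higher (left) and the 144 called lower (right). Boxes show the quartiles with the median as a line, whiskers the lowest and highest gene, in red for the 4 KO mice, dark blue for WT irradiated and light blue for WT non-irradiated mice. Mouse 118 has the median farthest from WT on both sides, 2.58 and -1.74. The genes were chosen by this same difference, so the distance of KO from 0 is not a finding.

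The effect of KO at 2 weeks was set against that in ileum of the same 9 mice, by the difference of colon and ileum within each mouse. Of 19379 genes tested, the effect was more positive in colon for 823 (4.25%) and more negative for 408 (2.11%), and without the mouse as a block 116 genes in all were called. In ileum alone, 1 of the 19379 genes was called between KO and WT and 6086 had an unadjusted p under 0.05 (limma). In colon 2648 of 18767 genes did. The difference holds the effects of both tissues, and the part of each was not tested. The difference was called for 83 of the 138 genes that rose in colon and for 81 of the 144 that fell. These genes were chosen by their effect in colon, which is part of the difference, so the choice favours the direction they share with it, and the same holds for each gene named here for its change in colon. Clca4b stood at 35105 ± 11479 (SD, n = 4) in KO ileum and 32349 ± 7358 (SD, n = 5) in WT ileum, so that the effect in colon exceeded that in ileum by 6.90 on the log2 scale (SE 0.45, adjusted p = 5.23e-08). Reg3b was abundant in ileum of both groups, at 208453 ± 68343 and 121429 ± 57984, and its colon effect was larger by 4.78 (SE 0.71, adjusted p = 0.000917). Nos2 and Tac1 were larger in colon by 3.30 and 3.99 (adjusted p = 6.33e-05 and 4.95e-05). The effect on Ly6a and Fut2 was not distinguished between the tissues (difference -0.00035 and -0.15, adjusted p = 1 and 0.872). Ly6a stood in ileum at 289 ± 228 in KO and 56 ± 23.7 in WT, far below its level in colon.

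Of the type I and III interferon genes 15 of 28 had a more negative effect in colon and 1 a more positive one, against 2.11 and 4.25% of all genes. Rsad2 stood at 345 ± 99.7 in KO ileum and 261 ± 31.6 in WT ileum, and its effect in colon differed from that in ileum by -2.47 on the log2 scale (SE 0.36, adjusted p = 0.000797). For Ifit1 the difference was -2.07 (adjusted p = 0.000825) and for Mx2 -1.79 (0.00156). Of the interferon gamma list 3 of 20 were larger in colon. Iigp1 was not among them (difference 0.36, SE 0.58, adjusted p = 0.755), with 424 ± 354 in KO ileum and 69.5 ± 54.5 in WT ileum. Of 32 cell cycle genes 20 had a more positive effect in colon, with a median difference of 1.06. Their median effect within colon was 0.36 with 2 called, so the difference does not measure a rise in colon. The part of KO ileum in it was not tested. Pla2g4c differed most among the named genes that fell, at 4931 ± 6879.7 in KO ileum and 258 ± 71.4 in WT ileum (difference -4.86, adjusted p = 0.00252). Rn45s took 17.0 to 29.4% of reads in KO ileum libraries 100, 118 and 120 and 3.81% in that of mouse 117. In WT ileum it took 25.4% in mouse 73 and 0.13 to 4.46% in the others. Lars2 and Cntnap5b, among the most negative differences, were highest in the libraries with most Rn45s reads. In colon Lars2 stood at 92612, 706, 4911 and 888 in KO and 3574, 28263, 181443, 267236 and 1144 in WT, high in the same mice 100, 72 and 73 as Rn45s. Its part in these differences was not tested. Without any 1 mouse the number of genes called ranged from 317 (without KO mouse 117) to 2804 (without WT mouse 73), with 746 without KO mouse 118 and 653, 567 and 540 without WT mice 59, 61 and 72.

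KO colon at 8 weeks after chimerism (n = 3 mice) was compared with KO colon at 2 weeks. Background reads came to 1052, 1026 and 752 per M in the 8-week libraries and to 429 to 693 in the 2-week ones. Time and background thus cannot be told apart here. The 8-week library of mouse 49 held 8.3 M reads. Of 19145 genes tested 2 were called (0.0104%) and 2424 had an unadjusted p under 0.05. Slfn5os, an antisense transcript at the Slfn5 locus, was higher at 8 weeks (385 ± 99.9 against 116 ± 20.1, SD; log2 1.70, SE 0.24, adjusted p = 0.0412). Pyy, a hormone of enteroendocrine L cells, was lower (5.53 ± 4.58 against 55.3 ± 17.6, log2 -3.28, SE 0.43, adjusted p = 0.0315), and at 2 weeks it stood within the WT values (45.7 to 81.7 in KO, 37.9 to 82 in WT). None of the 138 genes that rose or the 144 that fell at 2 weeks was called between the times (limma). Reg3b stood at 82052 ± 62753 at 8 weeks and 68453 ± 45608 at 2 weeks (log2 0.22, adjusted p = 0.873), Clca4b at 72303 ± 31641 and 44673 ± 29176 (log2 0.83, adjusted p = 0.408), and Rsad2 at 1318 ± 139 and 516 ± 264 (log2 1.48, adjusted p = 0.186). With edgeR 6 genes were called and with DESeq2 318, and leaving out any 1 KO library gave 0 to 22 calls (limma).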

How the data were processed

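RNA of sorted epithelium was sequenced from colon and ileum of 12 mice. The authors deposited 1 table of 24421 genes whose signal values are reads per gene divided by 1 size factor per library and rounded, as the values show: low values were whole multiples of 1 step for 99.6 to 100% of genes, within 0.05; in ileum of KO mouse 118 the step was too close to 1 for this to be a check. Per the submitters' processing notes, bcl2fastq, HISAT 0.1.6, HOMER and the build mm9 were used; the strand setting, annotation and scaling tool are not given in the sources used here.

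Values were tested as log2(value + 1) with limma 3.58.1 (trend, R 4.3.3) on genes of at least 10 in at least 2 of the libraries compared, with Benjamini-Hochberg adjustment over all genes tested. Colon minus ileum used the difference within each mouse, which the labels pair by mouse number; colon and ileum of a mouse deviated together with r of -0.139 to 0.64 (median 0.47), over 0.1 in 6 of 9 mice. The 8-week comparison was fitted on 12 colon libraries as 3 groups. Alternatives were other pseudocounts, filters, TMM, edgeR 4.0.16 and DESeq2 1.42.0 on the recovered reads, other controls, covariates and left-out libraries; restriction to libraries of high or low background was added after seeing the data. The smallest chi-square per gene between libraries of a group was 18.2, so none counted as a duplicate. The fit was tested on simulated data.

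Members and gene lists were chosen with earlier results of these data known. Named were the 12 called genes of largest change in each direction with no overlap and at least 5 reads per M, up to 6 called members of each list, a preset group, the 5 largest in each further comparison, list members given as values, and the 3 members of a list that varied most between KO mice. Another 22 genes were named after their values were seen, among them Tifa, Pglyrp1 and those of the other observations. Some genes that met the rule are not reported here by name; they stayed in every fit and list count. Promoters were matched by symbol to RefSeq (GRCm38.p6), which held 14113 of the 18767 tested genes.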

Additional observations from a re-analysis of the deposited data

Results flagged for a closer look

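Single mice stood apart from their group in 11 genes, by a gap to the nearest mouse that exceeded the 95% limit of Dixon's test on log2 values. This test picks about 1 in 20 groups by chance. It was applied to every named gene in both groups, with 133 named genes tested in colon, and 11 is no more than that rate would give. Mouse 118 was far above the other KO mice in Lrg1, at 1835.5 normalised reads, and far below them in Mptx1, at 179.4. Among the WT mice, mouse 75 was high in the lectins Reg3b (3605.7) and Reg3g (796.4) and low in Il18 (487.0). WT mouse 73 was high in Ly6c1 (295.4), Gbp4 (509.9) and the complement gene C2 (147.7), all of which rose in KO. WT mouse 59 was high in Pla2g5 (348.1). Of the KO mice, 117 was low in Vil1 (10192.5) and 120 high in Pyy (81.7).

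For 72 named genes the effect of KO at 2 weeks differed between colon and ileum of the same mice (limma on the within-mouse difference, adjusted p under 0.05), and 68 of them were also called in colon. Those 68 were named for their change in colon, which is part of the difference, so its direction is favoured by the choice. Among genes that rose in colon, the effect exceeded that in ileum on the log2 scale by 6.90 for Clca4b, 4.78 for Reg3b, 4.76 for Lrg1, 4.59 for Reg3g, 4.405 for Ces2f, 3.99 for Tac1, 3.83 for Cxcl2 and 3.71 for Clca3b. It did so by 3.58 for Pla2g2a, 3.43 for Sprr2h, 3.42 for Plat, 3.40 for Slpi, 3.33 for Socs3, 3.30 for Nos2, 3.25 for Tgm2, 2.91 for Clca3a1 and 2.84 for Clca3a2. Smaller excesses were 2.55 for Ces2g, 2.48 for Steap4, 2.32 for Slc5a9, 2.31 for Tifa, 2.30 for Cd14, 2.24 for Ltf, 2.22 for Osmr, 2.22 for Fads1, 2.08 for Pla2g5 and 1.83 for C3. The remaining ones were 1.79 for Reg3d, 1.76 for Slc28a3, 1.70 for Gbp4, 1.68 for Slc7a9, 1.61 for Trpv6, 1.61 for Pglyrp1, 1.58 for Ccnd1, 1.53 for Gpx2, 1.53 for Nox1, 1.42 for Ripk3, 1.37 for C2, 1.19 for Dhrs9, 1.18 for Cyp2j6, 1.10 for Slc51b and 1.07 for Irf8. In genes that fell in colon, the difference was -4.86 for Pla2g4c, -4.22 for Mettl7a2, -3.40 for Fndc5, -3.37 for Methig1, -3.27 for Prss23, -3.26 for Ang4, -2.59 for Cyp4b1, -2.01 for Ces1d, -1.94 for Slc20a1 and -1.90 for Slc30a10, and -1.85 for Clec2e, -1.72 for Gsdmc2, -1.68 for Clps, -1.61 for Sun2, -1.57 for Gsdmc3, -1.41 for Abcb1a, -1.37 for Fabp2, -1.34 for Pnliprp2, -1.27 for Clca2 and -1.14 for Hpgds. For interferon-inducible genes that fell it was -2.47 for Rsad2, -2.11 for Ddx60, -2.07 for Ifit1, -1.79 for Mx2, -1.47 for Ifit3 and -1.07 for Trim30d. Of the 4 genes not called in colon, S100a8 and Pim1 had a more positive effect there, by 5.40 and 1.76, and Lars2 and Cntnap5b a more negative one, at -6.50 and -5.00.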

How the results depend on the processing

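No named gene reversed, and the 282 genes called in colon kept their direction with either WT group as control, with background as covariate, with edgeR and DESeq2, and without KO mouse 118 or WT mouse 59. For 275 of the 282 the KO and WT values did not overlap, so another control or a left-out library could not change their direction. The number called was 1351 with DESeq2 (435 higher, 916 lower), 150 with both WT groups weighted equally, 29 and 72 with WT irradiated or non-irradiated mice alone, 1249 with background reads as covariate (956 higher, 293 lower), 812 in the 4 libraries of low background, a split chosen after seeing the data, and 84 to 329 with 1 library left out. Other settings gave 248 to 349, and edgeR gave 267 (155 higher, 112 lower). The cause of these differences was not tested. Of the 111 named genes called, 44 stayed called whichever library was left out and 19 did so also under every other setting except the 2 background splits, which were not counted; among these were Clca4b, Reg3b, Reg3g, Nos2, Socs3, Steap4, Osmr, Tac1 and Plet1. With edgeR 14 lost their call: Clca1 (adjusted p = 0.0758), Cxcl16 (0.0613), Ifi27 (0.0573), Rtp4 (0.0618), Tgtp1 (0.0614), Tgtp2 (0.0518), Ces1d (0.097), B3galt5 (0.0708), Abcb1a (0.052), Sult1c2 (0.0598), Slc30a10 (0.0954), Ddx60 (0.0504), Ifi27l2a (0.0552) and Ubd (0.111), while S100a8 (0.03) and Cxcl1 (0.0498) gained one. DESeq2 also called Pim1, Mptx1 and Muc2 and gave no adjusted p for 6 called genes, Lrg1 and Lcn2 among them. For colon minus ileum, paired by mouse, 1231 genes were called, 116 without the replicate block and 317 to 2804 with 1 mouse left out. Between 8 and 2 weeks the count of 2 became 10 with a pseudocount of 10, 7 with TMM scaling, 6 with edgeR, 318 with DESeq2 and 0 to 22 with 1 library left out. With 4 and 5 mice a group, the SE of the log2 difference reached 1.24 for S100a8 and 0.82 for Cd74.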

Other observations

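The genes of this section stood outside the rule for named genes and were chosen after their values were seen. Genes of 3 complement proteins rose in colon at 2 weeks. C3, the central component of the cascade, stood at 428, 305, 776 and 1092 in KO and 41.2, 45.4, 42, 171 and 129 in WT (log2 3.01, SE 0.48, adjusted p = 0.00958, limma). C2, which forms part of the classical C3 convertase, rose by 1.70 (adjusted p = 0.00978) and C4b, at a low level, by 2.28 (adjusted p = 0.023). Wfdc17 and Wfdc18, small secreted proteins with the same fold as Slpi, rose by 2.42 and 2.81 (adjusted p = 0.00894 and 0.000413). Tgm2, a transglutaminase that cross-links matrix proteins, stood at 562, 1009, 7899.8 and 1726 in KO and 188, 102, 160.5, 154 and 90.8 in WT (log2 3.63, adjusted p = 0.00922), and Plat, the tissue plasminogen activator, at 256, 376, 746 and 905 in KO and 58.4, 49.8, 40.8, 29.5 and 68.3 in WT (log2 3.39, adjusted p = 0.000711). Mouse 118 was the highest KO mouse in Tgm2 and mouse 120 in Plat. Reg3d, a relative of Reg3b, rose from 2.5–12.1 in WT to 13.5–68.4 in KO (adjusted p = 0.0331).

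Genes of 4 apical transporters and channels rose. Slc5a9, a sodium-coupled sugar transporter, stood at 696, 1039, 1296 and 989.6 in KO and 235, 206, 136, 183 and 159 in WT (log2 2.43, SE 0.22, adjusted p = 0.000222). Slc7a9, an exchanger of cystine and basic amino acids, rose by 1.81 (adjusted p = 0.00183), Slc28a3, a nucleoside transporter, by 1.81 (adjusted p = 0.00958) and Trpv6, a calcium channel, by 2.12 (adjusted p = 0.0182). Further interferon-inducible genes outside the lists fell: Cmpk2, a mitochondrial nucleotide kinase, by 1.13, Ddx60, a helicase of viral RNA sensing, by 1.89, Trim30d by 1.27 and Ifi27l2a by 1.27 (adjusted p = 0.0196, 0.0296, 0.0312 and 0.0452). Il15, the cytokine that sustains intraepithelial lymphocytes, stood at 1047, 614, 492 and 1389 in KO and 3246, 1955, 2580.2, 4012 and 1716 in WT (log2 -1.66, adjusted p = 0.0271). Ubd, a ubiquitin-like protein that interferon gamma and TNF induce, rose from 62.4–1132 in WT to 850.4–2898 in KO, with overlapping groups (log2 2.99, adjusted p = 0.0433), and Pnliprp2, a lipase, fell from 66.2–261 in WT to 30.7–49.5 in KO (adjusted p = 0.0217). Tgm2, Plat, Wfdc17, Wfdc18, Slc5a9, Slc7a9 and Slc28a3 stayed called whichever library was left out.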
